A study of Mus musculus with 6 samples.

Results

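Bone morphogenetic protein (BMP) signalling was followed through 10 genes: the ligands Bmp2, Bmp4 and Bmp7, the target genes Id1, Id2, Id3 and Id4, and the inhibitors Smad6, Smad7 and Bambi. They were chosen by name, as the probes of the 10 gene names on every array, and all 10 were among the 18588 gene names tested. The study used mouse HACA cells in which a short hairpin RNA targeted Loxl2 (shLoxl2 cells), Snail (shSnail cells) or, as control, GFP (shGFP cells). Each of 6 arrays of 2 colours compared RNA of a silenced line with shGFP RNA. The Loxl2 product is a lysyl oxidase-like enzyme, while Snail, encoded by Snai1, is a zinc finger repressor known for its part in epithelial-mesenchymal transition. There were 2 shLoxl2 samples, each on 2 arrays with the dyes exchanged, and 2 shSnail samples on 1 array each, both with the silenced RNA in Cy5. No label says whether a hairpin line was a clone or a pool, or whether numbered samples were separate cultures. The p-values therefore measure only the spread between these samples or arrays, which may be technical. Where all 6 arrays were fitted together, the 2 arrays of a shLoxl2 sample counted as separate. The spread between arrays of 1 sample entered those p-values. The shGFP RNA counts as 1 control sample, and its own spread is in no test against shGFP.

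BMP ligands bind serine-threonine kinase receptors at the cell surface, which phosphorylate Smad1, Smad5 and Smad9. These enter the nucleus with Smad4 and switch on target genes, among which the Id genes are the best known. Id proteins bind E proteins such as Tcf3 and Tcf4 and keep them from DNA, and in the epidermis they are linked to the undifferentiated state. Smad6, Smad7 and the pseudoreceptor Bambi are induced by the pathway and restrain it.

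Each of the 10 genes had 1 probe. Probe positions in the mouse build mm8 were chr2:133253082-133253141 for Bmp2, chr14:45306004-45306063 for Bmp4, chr2:172512720-172512779 for Bmp7, chr2:152428721-152428780 for Id1, chr12:25684398-25684745 for Id2, chr4:135416236-135416410 for Id3, chr13:48275748-48275807 for Id4 and chr9:63751577-63751636 for Smad6. The span of the Id2 probe was 348 bases and that of the Id3 probe 175 bases, against 60 bases for the others. Exons and UTRs were not annotated in mm8 here, so the place of a probe within its transcript is not given.

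Promoter sequence from RefSeq (GRCm38.p6) matched 5 of the 10 genes, and the 250 bases before the start site were searched on both strands for GGCGCC, a GC element known to be bound by BMP-activated Smads, for the Snail-type E-box CAGGTG and for the Smad element CAGAC. Those of Id2 and Id3, which were higher on both shSnail arrays, and of Smad6, which passed the test in shLoxl2 cells, are shown with matches in capitals.
Id2, chr12:25096093-25096342, minus strand: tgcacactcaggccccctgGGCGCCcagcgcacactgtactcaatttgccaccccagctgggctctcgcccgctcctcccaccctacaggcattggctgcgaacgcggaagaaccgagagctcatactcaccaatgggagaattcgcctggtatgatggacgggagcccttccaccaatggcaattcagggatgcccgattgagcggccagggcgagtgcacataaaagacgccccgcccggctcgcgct
Id3, chr4:136143572-136143821, plus strand: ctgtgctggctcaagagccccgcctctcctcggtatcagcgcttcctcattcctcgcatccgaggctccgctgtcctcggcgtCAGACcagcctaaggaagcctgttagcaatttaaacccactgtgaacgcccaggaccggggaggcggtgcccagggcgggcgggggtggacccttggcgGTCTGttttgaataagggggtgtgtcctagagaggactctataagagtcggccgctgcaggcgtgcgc
Smad6, chr9:64022060-64022309, minus strand: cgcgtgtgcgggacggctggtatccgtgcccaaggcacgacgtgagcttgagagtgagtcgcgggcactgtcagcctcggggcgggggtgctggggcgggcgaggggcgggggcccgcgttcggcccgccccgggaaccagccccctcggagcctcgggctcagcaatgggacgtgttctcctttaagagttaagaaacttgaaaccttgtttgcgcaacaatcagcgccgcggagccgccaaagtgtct
The Id2 window held GGCGCC with its first base at -231 from the start site. Id4 held it as well, at -148, and of all 32851 promoter windows of this length 9.59% did. The Id3 window held 2 copies of the Smad element, 1 on each strand, at -167 and -68; 42.2% of all windows held at least 1. The E-box was found in the Bmp4 window, at -177, and in 17.2% of all windows. None of the 3 motifs stood in the Smad6 window, and no match overlapped another. These matches describe the letters of the windows only.

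Spots well above background made up 85.4% to 92.4% of an array in Cy5 and 55.9% to 74.9% in Cy3. The silenced transcripts did not check the labels: the log2 fold change of Loxl2 in shLoxl2 cells was 0.11 (SE 0.12, n = 2, limma adjusted p = 0.59) with ratios from -1.30 to 1.38, measured well above background in silenced RNA on 2 of 4 arrays and in shGFP RNA on 1, and on the shSnail arrays neither channel measured Snai1 well above background. Of 7 keratinocyte markers on the array, Krt5, Krt14, Trp63 and Krt18 were well above background in both channels of all 6 arrays. Krt8 was so in no Cy3 channel. Epcam reached that level in Cy5 on 6 arrays and in Cy3 on 2, and Cdh1 in Cy5 on 4 and in Cy3 on 2. The endothelial list had 0 of 5 markers, the fibroblast list 1 of 6, the leukocyte list 2 of 5 and the muscle list 2 of 4 (Myog and Myod1) at that level; their part in the results was not tested. Ratios also held a dye effect, the part shared by the 2 orientations of a dye-swapped shLoxl2 pair. Its SD over probes was 0.463 in log2 units, and it passed the threshold for 5572 of 19751 probes. On the shSnail arrays, all of 1 orientation, this effect followed the shLoxl2 estimate with a slope of 0.453. Comparisons of shSnail with shGFP are given with the effect removed in full, as the main result. At this slope, full removal took out more of the effect than the shSnail arrays followed. The comparisons are therefore also given with the effect scaled by this slope and with no correction. Fits with the effect scaled took the dye effect and the slope, both estimated from these arrays, as known. Their SEs leave out the error of these estimates, so their p-values understate the uncertainty. For Id2 the SE was 0.19 scaled and 0.19 uncorrected, against 0.31 with the effect removed in full.

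Both channels measured Bmp2, Id1, Id3 and Smad7 on all 6 arrays. Id2 and Id4 were well above background in Cy5 on 6 arrays and in Cy3 on 5. Bmp4 reached that level in Cy3 on 2 arrays and Bmp7 on 1, while Smad6 and Bambi did so on none. Their ratios therefore set a measured Cy5 signal against a Cy3 signal near background, and Smad6 was well above background in Cy5 on 5 arrays. No spot of these genes was saturated.

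**Figure D1:**
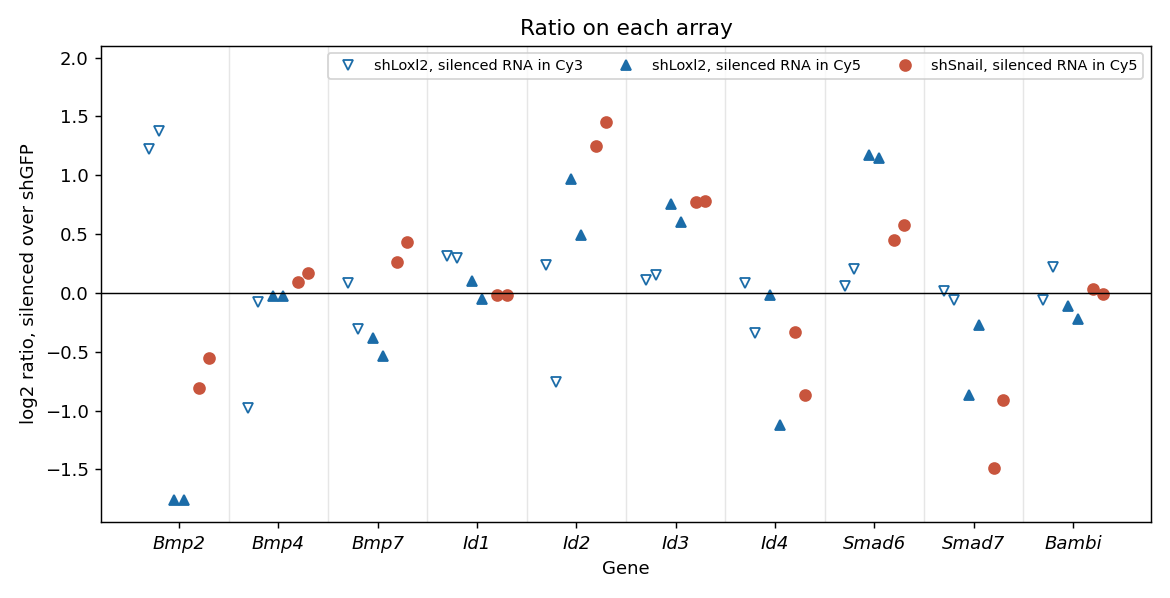
Log2 ratio of silenced over shGFP RNA (vertical axis) for each of the 10 genes (horizontal axis), 1 point per array; triangles are shLoxl2 arrays, open with the silenced RNA in Cy3 and filled with it in Cy5, and circles are shSnail arrays. The Bmp2 points change sign with the dye, from 1.22 and 1.38 to -1.76, whereas the Id3 points are above 0 on all 6 arrays and the Smad7 points of shSnail are at -1.49 and -0.91.

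Among the Id genes, Id2 and Id3 gave the higher signal in silenced RNA on both shSnail arrays, and Id1 stayed close to the control on all 6 arrays. Id1, the standard transcriptional readout of BMP signalling, had log2 ratios of silenced over shGFP of 0.31 and 0.30 on the shLoxl2 arrays with silenced RNA in Cy3, 0.10 and -0.05 with it in Cy5, and -0.02 on each of the 2 shSnail arrays. The ratios of the 6 arrays lay within 0.31 of 0. The fitted log2 fold change of Id1 was 0.16 in shLoxl2 cells (95% interval -0.10 to 0.43, SE 0.11, limma adjusted p = 0.371) and 0.12 in shSnail cells (-0.23 to 0.47, SE 0.14, limma adjusted p = 0.627). Both intervals include 0.

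Id3, another E protein antagonist, had ratios of 0.11 and 0.15 on the shLoxl2 arrays with silenced RNA in Cy3, 0.76 and 0.60 with it in Cy5, and 0.77 and 0.78 on the shSnail arrays. Silenced RNA gave the higher signal on all 6 arrays. The change in shLoxl2 cells was 0.40 (95% interval 0.14 to 0.66, SE 0.11) and missed the threshold (limma adjusted p = 0.0598). In shSnail cells it was 0.50 with the dye effect removed in full (SE 0.15, limma adjusted p = 0.0689), which missed the threshold as well. Id3 passed with the dye effect scaled, at 0.65 (limma adjusted p = 0.00893), and with no dye correction, at 0.77 (limma adjusted p = 0.00445).

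Id2, which is prominent in epithelial and lymphoid progenitors, had ratios of 0.24 and -0.76 on the shLoxl2 arrays with silenced RNA in Cy3, 0.97 and 0.49 with it in Cy5, and 1.25 and 1.45 on the shSnail arrays. The shSnail arrays were the highest, and the 2 shLoxl2 samples disagreed in sign once their arrays were averaged, at 0.61 and -0.13. The mean in shLoxl2 cells was 0.24 ± 0.52 (SD, n = 2) and did not pass (limma adjusted p = 0.467); without shLoxl2 replicate 1 it was -0.13. For shSnail the fitted change was 0.85 with the dye effect removed in full (95% interval 0.11 to 1.59, SE 0.31, limma adjusted p = 0.117). With the effect scaled it was 1.12, or 2.18-fold (limma adjusted p = 0.0104), and with no correction 1.35 (limma adjusted p = 0.00499), both past the threshold. The dye effect of the Id2 probe itself was 0.50 (SE 0.18, limma adjusted p = 0.0851).

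Id4, the fourth gene of the family, had ratios of 0.08 and -0.34 on the shLoxl2 arrays with silenced RNA in Cy3, -0.02 and -1.12 with it in Cy5, and -0.33 and -0.87 on the shSnail arrays. Its samples spread widely, with shLoxl2 averages of 0.03 and -0.73. It did not pass in shLoxl2 cells, at -0.35 (SE 0.22, limma adjusted p = 0.359; 0.03 without shLoxl2 replicate 2), or in shSnail cells, at -0.38 (SE 0.34, limma adjusted p = 0.51). The shSnail value was -0.65 without shSnail replicate 1 and -0.11 without shSnail replicate 2, and it did not pass with the dye effect scaled, at -0.50 (limma adjusted p = 0.169), or with no correction, at -0.60 (limma adjusted p = 0.0859).

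None of Bmp2, Bmp4 and Bmp7 passed the test in shLoxl2 cells, and Bmp2 passed the test in shSnail cells with a sign that turned with the dye correction. Bmp2 had ratios of 1.22 and 1.38 on the shLoxl2 arrays with silenced RNA in Cy3 and of -1.76 on each of the 2 with it in Cy5. The shSnail arrays gave -0.81 and -0.55. Averaged over the dyes, Bmp2 was at -0.23 ± 0.06 in shLoxl2 cells (SD, n = 2, limma adjusted p = 0.275). Its dye effect was -1.53 (SE 0.09, limma adjusted p = 0.000635), larger in size than that of 99.2% of probes.

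In shSnail cells Bmp2 was at 0.85 with the dye effect removed in full (1.80-fold, SE 0.16, limma adjusted p = 0.0188). With the effect scaled it was at 0.01 (limma adjusted p = 0.953), and with no correction at -0.68 (limma adjusted p = 0.00956). Silenced RNA thus gave the lower signal on both shSnail arrays, and the positive sign came from the correction. The call was also lost without shSnail replicate 1, at 0.98 (limma adjusted p = 0.129), and without shSnail replicate 2, at 0.72 (limma adjusted p = 0.193), and with the scanner software's ratios, at 0.46 (limma adjusted p = 0.407), or the authors' value table, at 0.08 (limma adjusted p = 0.94).

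Bmp7, a ligand of epithelia and kidney, had ratios of 0.08 and -0.31 on the shLoxl2 arrays with silenced RNA in Cy3, -0.38 and -0.54 with it in Cy5, and 0.26 and 0.43 on the shSnail arrays. The shSnail arrays lay above all 4 shLoxl2 arrays. Against shGFP, Bmp7 was at -0.29 in shLoxl2 cells (SE 0.12, limma adjusted p = 0.199) and at 0.52 in shSnail cells (95% interval 0.09 to 0.95, SE 0.18, limma adjusted p = 0.105), and neither passed. With median centring in place of loess, Bmp7 in shSnail cells passed, at 1.38 (limma adjusted p = 0.0016). That setting called 7178 of 19751 probes. With the authors' value table Bmp7 was at -0.30.

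For Bmp4, a ligand of early ectoderm and of skin appendages, 5 of the 6 ratios lay between -0.08 and 0.17. The remaining array, shLoxl2 replicate 1 with silenced RNA in Cy3, was at -0.98. The fitted values were -0.28 in shLoxl2 cells (SE 0.14, limma adjusted p = 0.261) and -0.12 in shSnail cells (SE 0.26, limma adjusted p = 0.794; 0.10 without shLoxl2 replicate 1). With median centring in place of loess, Bmp4 in shSnail cells was at 0.90 (limma adjusted p = 0.0182). With the scanner software's ratios it was at -1.21 (limma adjusted p = 0.0243), so the 2 settings called it in opposite directions. Only 2 arrays measured Bmp4 above background in Cy3.

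Among the inhibitors, Smad6 passed the test in shLoxl2 cells, with its Cy3 channel not well above background on any array, and Smad7 was lower on both shSnail arrays. Smad6, which blocks the BMP-activated Smads, had ratios of 0.06 and 0.20 on the shLoxl2 arrays with silenced RNA in Cy3 and 1.17 and 1.15 with it in Cy5. Its averages over the dyes were 0.62 and 0.67, and the fit gave 0.65 (95% interval 0.38 to 0.91, SE 0.11, n = 2, limma adjusted p = 0.016). This was the 1 gene of the 10 to pass in shLoxl2 cells, beside 13.9% of all probes tested. The dye effect of the Smad6 probe was 0.52 (SE 0.08, limma adjusted p = 0.00649). A fit of 1 dye orientation keeps this effect, with opposite signs in the 2 orientations. The call was kept with silenced RNA in Cy5 only, at 1.16 (limma adjusted p = 0.0034), and lost with it in Cy3 only, at 0.13 (limma adjusted p = 0.45). It was also lost without shLoxl2 replicate 1, at 0.67 (limma adjusted p = 0.0508), without background subtraction, at 0.15 (limma adjusted p = 0.165), with the scanner software's ratios, at 0.51 (limma adjusted p = 0.154), and with the authors' value table, at 0.51 (limma adjusted p = 0.356). The silenced RNA was well above background on 2 of the 4 arrays and the shGFP RNA on the other 2, each time in Cy5. Each ratio of Smad6 thus had 1 side that was not well above background, so no fold is given.

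On the shSnail arrays Smad6 had ratios of 0.45 and 0.58. The shGFP channel was well above background on 0 of 2 of these arrays and the silenced channel on 1, so no fold is given for Smad6 there either. The limma adjusted p of Smad6 in shSnail cells was 0.996 with the dye effect removed in full, 0.125 with it scaled and 0.017 with no correction. With median centring in place of loess the limma adjusted p was 0.0153.

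Smad7, which restrains both TGF-beta and BMP receptors, had ratios of 0.02 and -0.06 on the shLoxl2 arrays with silenced RNA in Cy3, -0.87 and -0.27 with it in Cy5, and -1.49 and -0.91 on the shSnail arrays. Both shSnail arrays lay below all shLoxl2 arrays. In shLoxl2 cells Smad7 was at -0.30 (SE 0.17, limma adjusted p = 0.313). In shSnail cells it was at -0.92 with the dye effect removed in full (95% interval -1.52 to -0.33, SE 0.25), and the adjusted p of limma was 0.0535. With the effect scaled Smad7 was at -1.08 (limma adjusted p = 0.00777) and with no correction at -1.20 (limma adjusted p = 0.00478), both past the threshold.

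Bambi, a receptor-like protein without a kinase domain, had ratios between -0.22 and 0.22 on the shLoxl2 arrays and of 0.03 and -0.01 on the shSnail arrays. Its 10 spots on each array were averaged. It was at -0.04 in shLoxl2 cells (95% interval -0.30 to 0.22, SE 0.11, limma adjusted p = 0.832) and at 0.13 in shSnail cells (-0.25 to 0.51, SE 0.16, limma adjusted p = 0.622). With median centring in place of loess, Bambi in shSnail cells passed, at 0.75 (limma adjusted p = 0.0116). With the scanner software's ratios it was at -0.21 (limma adjusted p = 0.586). The Cy3 channel, which held the shGFP RNA on the shSnail arrays, was not well above background on any array. No fold is therefore given for Bambi there.

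**Figure D2:**
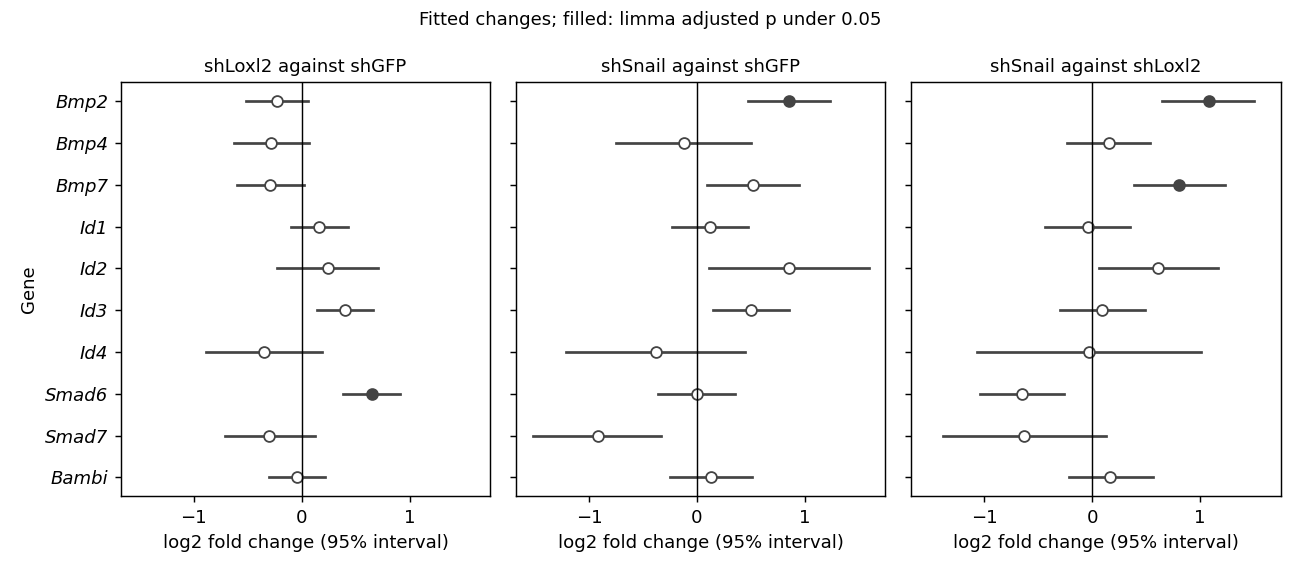
Fitted log2 fold change (horizontal axis) with its 95% interval for each of the 10 genes (vertical axis) in the 3 comparisons; filled points have a limma adjusted p under 0.05. Smad6 is filled in shLoxl2 against shGFP at 0.65, Bmp2 in shSnail against shGFP at 0.85, and Bmp2 and Bmp7 in shSnail against shLoxl2 at 1.08 and 0.81.

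In shSnail cells against shGFP, with the dye effect removed in full, 1 of the 10 genes passed, beside 15.2% of all probes. With the effect scaled Id2 and Id3 were called higher and Smad7 lower, 3 of the 10 beside 22.9% of all probes (8.8% higher and 14.1% lower). With no correction Id2, Id3 and Smad6 were called higher and Bmp2 and Smad7 lower, 5 of the 10 beside 31.5% of all probes (13.1% higher and 18.4% lower). The sign was the same under all 3 treatments for Id2, Id3, Bmp7 and Bambi, which were above 0, and for Id4 and Smad7, which were below 0. Some genes did not pass under any of these 3 treatments of the dye effect. Of them, Bmp7 was at 0.42 scaled and 0.35 uncorrected, and Id1 at 0.04 and -0.02. Bmp4 was at 0.01 and 0.13, and Bambi at 0.07 and 0.01. The median log2 fold change of the 10 genes was 0.13 in full correction (all genes -0.04), 0.06 scaled (all genes 0.01) and 0.07 uncorrected (all genes 0.05). In shLoxl2 cells their median was -0.13, against -0.01 for all genes.

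**Figure D3:**
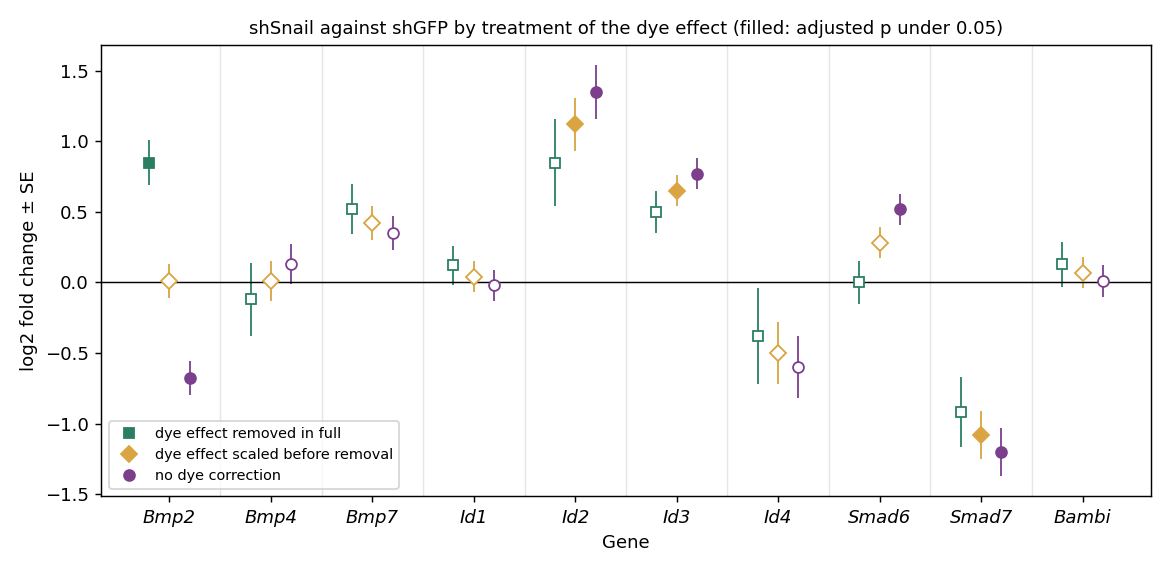
Log2 fold change of shSnail against shGFP with its standard error (vertical axis) for each of the 10 genes (horizontal axis), with the dye effect removed in full (squares), scaled before removal (diamonds) or not corrected (circles); filled points have a limma adjusted p under 0.05. Bmp2 moves from 0.85 to -0.68 across the 3 treatments, while Id2 stays between 0.85 and 1.35 and Smad7 between -0.92 and -1.20.

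The comparison of shSnail with shLoxl2 cells used the 4 arrays with silenced RNA in Cy5, where a dye effect equal on all of them cancels. With a slope of 0.453 on the shSnail arrays, the effect was not equal and did not cancel in full. The dye effect of the Bmp2 probe was -1.53. Bmp2 and Bmp7 were called higher in shSnail than in shLoxl2 cells, 2 of the 10 genes beside 12.8% of all probes. Bmp2 differed by 1.08 (2.11-fold, SE 0.17, limma adjusted p = 0.0239) and Bmp7 by 0.81 (SE 0.17, limma adjusted p = 0.04). The shGFP channel of Bmp7 was well above background on 1 of these 4 arrays, so no fold is given for it. With the dye effect scaled, 0 of the 10 passed, beside 12.3% of all probes (3.66% higher and 8.63% lower), with Bmp2 at 0.24 (limma adjusted p = 0.394) and Bmp7 at 0.71 (limma adjusted p = 0.0547). Limma's unadjusted p was under 0.05 for Bmp7, Id2 and Smad7. The share of all probes under that unadjusted threshold is not given here, so this is not read as a result. Without shSnail replicate 1 the values were 1.21 for Bmp2 (limma adjusted p = 0.126) and 0.89 for Bmp7 (limma adjusted p = 0.204). Without shSnail replicate 2 they were 0.95 for Bmp2 (limma adjusted p = 0.167) and 0.72 for Bmp7 (limma adjusted p = 0.261). Bmp7 was at 0.34 without background subtraction (limma adjusted p = 0.0591) and at 0.48 with the scanner software's ratios (limma adjusted p = 0.614). With the authors' value table Bmp7 was at -0.25 (limma adjusted p = 0.758) and Bmp2 at 0.42 (limma adjusted p = 0.535).

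Smad6, whose shGFP channel was well above background on 0 of these 4 arrays, did not pass (limma adjusted p = 0.0545). In the same comparison Id2 was at 0.61 (SE 0.22, limma adjusted p = 0.128) and Smad7 at -0.63 (SE 0.30, limma adjusted p = 0.215). Neither passed. Id1 differed by -0.04 (95% interval -0.44 to 0.35, SE 0.16, limma adjusted p = 0.871), Id3 by 0.09, Id4 by -0.03 and Bambi by 0.17. Bmp4 was at 0.16, but at -1.26 with the scanner software's ratios (limma adjusted p = 0.0414). The shLoxl2 and shSnail arrays were scanned on different days and extracted with different protocol versions per the file headers, so these and the hairpin cannot be told apart here.

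Other genes of the pathway were taken from a list of 67, of which 56 were tested. In shLoxl2 cells 7 passed as higher and 3 as lower, beside 8.08% of all probes higher and 5.85% lower, and the median of the list was 0.00 against -0.01 for all genes. The 2 antagonists that fell moved most: Fst, which encodes the activin and BMP binding protein follistatin, was at a log2 fold change of -2.77 (SE 0.11, limma adjusted p = 0.000583) and the related Fstl1 at -2.01 (SE 0.14, limma adjusted p = 0.0018). Fst was low on every array, with ratios of -2.95 and -2.81 with silenced RNA in Cy3 and -2.68 and -2.63 with it in Cy5. Of the other antagonists, the secreted Nbl1 rose by 0.99 (SE 0.11, limma adjusted p = 0.00516) and the membrane protein Crim1 by 0.80, and 9 of 13 did not pass.

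Among 13 signal transducers and their regulators, Ski, a corepressor that binds Smads, was higher by 0.90 in shLoxl2 cells (SE 0.11, limma adjusted p = 0.00583) and the ubiquitin-conjugating enzyme Ube2o by 0.70. The other tested probes of these genes did not pass, at 0.24 and 0.39 for Ski and 0.22 for Ube2o. Of the E proteins that Id proteins bind, Tcf3 rose, at 0.66, and Tcf4 fell, at -0.68. The target Atoh8 was called at 0.78 and the ligand Bmp6, well above background in Cy3 on 1 of the 6 arrays, at 0.59. The 10 called genes of the list were picked by a fit that included all shLoxl2 arrays. Counts of them on some of the same arrays are therefore no separate test. With silenced RNA in Cy5 only, 7 of the 10 passed, beside 7636 of all 19751 probes. Those that did not were Atoh8 at 0.12 (limma adjusted p = 0.478), Tcf4 at -0.32 (limma adjusted p = 0.0858) and Crim1 at 0.37 (limma adjusted p = 0.0864). With silenced RNA in Cy3 only, 9 passed, beside 6712 of all 19751 probes, and Bmp6 did not, at 0.15 (limma adjusted p = 0.603). Among 8 receptors the values ran from -0.18 to 0.39 and the lowest limma adjusted p was 0.082, for Bmpr1b. Without shLoxl2 replicate 1, 6 of these 10 genes passed, and without shLoxl2 replicate 2, 7 did; Fst, Fstl1, Nbl1 and Ski passed in both.

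In shSnail cells 10 of the 56 genes fell and 3 rose, beside 9.31% of all probes lower and 5.88% higher, with a median of -0.27 against -0.04 for all genes. Fst was at -3.11 (SE 0.15, limma adjusted p = 0.00262) and Fstl1 at -1.84 (SE 0.22, limma adjusted p = 0.00631). Among the targets, Gata3, a transcription factor of epidermal differentiation, was at -1.31 (SE 0.14, limma adjusted p = 0.00435) and Junb, an AP-1 subunit, at -1.38 (SE 0.17, limma adjusted p = 0.00646). The ratios of Gata3 were -1.36 and -1.34 on the shSnail arrays and between 0.16 and 0.25 on the 4 shLoxl2 arrays. The osteoblast factor Runx2 was at -1.30, the E protein Tcf4 at -1.35, the common mediator Smad4 at -1.05 and the ubiquitin ligase Smurf2 at -0.69, each past the threshold.

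The targets Hey1 and Atoh8 were called higher in shSnail cells, at 1.01 and 0.87, and the BMP coreceptor Rgmb at 0.97. Of these, Hey1 changed sign without dye correction, at -0.20 (limma adjusted p = 0.301), and did not pass with the effect scaled, at 0.35 (limma adjusted p = 0.133). Atoh8 and Rgmb lost their calls without dye correction, at 0.20 (limma adjusted p = 0.234) and 0.27 (limma adjusted p = 0.135), and passed with the effect scaled, at 0.50 and 0.58. The antagonist Nog and the ligand Bmp10, called lower at -0.90 and -0.64, were not well above background in Cy3 on any array. Without correction Nog was at 0.47 (limma adjusted p = 0.0221) and Bmp10 at 0.25 (limma adjusted p = 0.122). Neither passed with the effect scaled, Nog at -0.15 (limma adjusted p = 0.384) and Bmp10 at -0.16 (limma adjusted p = 0.35). With the dye effect scaled 3 of the 56 genes were higher and 15 lower, beside 8.8% and 14.1% of all probes, and with no correction 3 were higher and 16 lower, beside 13.1% and 18.4%. None of the 13 genes called passed without shSnail replicate 1 or without shSnail replicate 2. These fits left 1 shSnail sample, and almost no probe of all passed in them. Fst was at -3.01 without shSnail replicate 1 and at -3.21 without shSnail replicate 2.

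**Figure D4:**
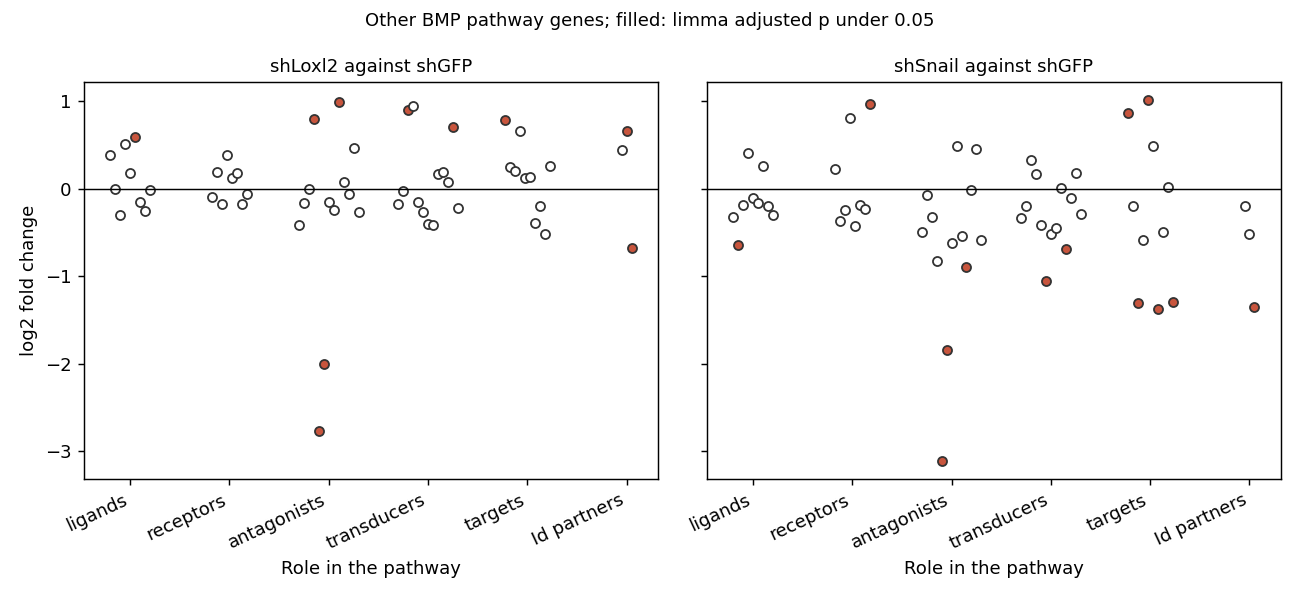
Log2 fold change (vertical axis) of the other BMP pathway genes by role (horizontal axis) in shLoxl2 against shGFP (left) and shSnail against shGFP with the dye effect removed in full (right), 1 point per gene; filled points have a limma adjusted p under 0.05. The lowest point of each panel is the antagonist Fst, at -2.77 and -3.11, and the next antagonist is Fstl1, at -2.01 and -1.84.

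Against shLoxl2 cells, 8 of the 56 genes were lower in shSnail cells and 3 higher, beside 8.56% and 4.24% of all probes, with a median of -0.29 against -0.04 for all genes. Nbl1 was at -1.53 (SE 0.15) and Gata3 at -1.52 (SE 0.15), each with a limma adjusted p of 0.0164. Crim1 was at -1.63 (SE 0.19, limma adjusted p = 0.0173) and Runx2 at -1.56 (SE 0.20, limma adjusted p = 0.018). Also past the threshold were Tcf3 at -1.18, Junb and Nog at -0.99 each, Smurf2 at -0.89, Rgmb at 1.02 and Hey1 at 0.89. Fst differed by -0.34 (SE 0.16, limma adjusted p = 0.215) and Fstl1 by 0.17 (SE 0.18, limma adjusted p = 0.547). With the dye effect scaled 7 were lower and 0 higher, beside 8.63% and 3.66% of all probes; Nog, Rgmb and Hey1 did not pass. None of the 11 passed without shSnail replicate 1 or without shSnail replicate 2. These fits left 1 shSnail sample, and few of all probes passed in them.

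By the root mean square difference of log2 ratios over the 6 arrays, the genes closest to Id1 among 18546 compared were Ubap2 at 0.06, AI835779 at 0.07 and Whsc1l1 at 0.08, against a median of 0.53 over all genes. Those closest to Bmp4 were 4933424G06Rik at 0.05, Bpifa2 at 0.05 and AK048563 at 0.06 (median 0.62). Those closest to Smad6 were Pigo at 0.12, Zfyve26 at 0.13 and Nnmt at 0.14 (median 0.82). Bmp4 was well above background in Cy3 on 2 arrays and Smad6 on 0, so their patterns hold Cy3 signals near background. Whether the genes closest to them were measured well above background is not given. The closest genes lie below the median by the way they were chosen. The Id1 ratios lay within 0.31 of 0, so its closest genes were likewise little changed.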

How the data were processed

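Labelled RNA of shLoxl2, shSnail and shGFP cells was measured on 6 Agilent arrays, and each group is that of the labels. The deposited spot intensity of each channel came from Agilent Feature Extraction, whose version is 9.5.1.1 in the file headers and 6.1.1 in the submitters' processing notes. The same software made the deposited log10 ratio of each spot, Cy5 over Cy3. These log10 ratios, rounded, fill the authors' value table, within 0.006 at 100% of spots for 5 arrays, with Cy5 over Cy3 as direction, no further centring and medians from 0.0371 to 0.098. Its column for shSnail replicate 2 matched its own array at 9.37% of spots and replicate 1's at 100%, so it was left out and the table served only as an alternative.

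Mean intensities were corrected by normexp against the local background (offset 50) and normalized by loess, in which the 736 controls and the outlier spots had weight 0, in limma 3.58.1 with R 4.3.3 and data.table (version 1.17.8). Of 20868 probes (21318 spots, averaged by probe), the 19751 that stood well above background on 2 or more arrays, in either channel, were tested by lmFit and eBayes on log2 ratios of silenced over shGFP, with Benjamini-Hochberg adjustment over all of them at 0.05. RefSeq accessions named 14711 probes and the files 6157; the brightest tested probe stands for a gene. For shLoxl2, the 2 dye-swapped arrays of a sample were averaged and the shSnail arrays shared the spread (2 residual degrees of freedom). For shSnail, all 6 arrays were fitted with a dye term (3), the 2 arrays of a shLoxl2 sample counting as separate. The dye effect was tested in the same fit. For shSnail against shLoxl2, the 4 Cy5 arrays were fitted (2). On 3 arrays an outlier spot of Bambi was left out. The scripts were tested on simulated data. The number of arrays limits the precision.

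The 10 genes, the pathway and marker lists and the tests were chosen with earlier results of these data known. Named are all 10 genes, at most 4 other pathway genes per comparison with the smallest p among those passing, and the 3 nearest patterns of Id1, Bmp4 and Smad6. Other pathway genes that passed are named after their values were seen, and 1 is not reported here. Alternatives covered background correction, normalization, filters, probe choice, source of values, left-out replicates and the treatment of the dye effect.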

Additional observations from a re-analysis of the deposited data

Results flagged for a closer look

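In shSnail against shLoxl2 cells the change of Bmp2 against shGFP differed between the hairpins by 1.08 on the log2 scale, and limma's test of that difference passed (adjusted p = 0.0239). The same test gave a difference of 0.81 for Bmp7 (limma adjusted p = 0.04). The shSnail arrays lay above the shLoxl2 arrays of the same dye orientation for both genes, at -0.81 and -0.55 against -1.76 for Bmp2 and at 0.26 and 0.43 against -0.38 and -0.54 for Bmp7. The dye effect was not equal on these arrays and did not cancel in full. With the dye effect scaled, neither passed, and Bmp2 was at 0.24.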

How the results depend on the processing

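The count of probes past the threshold depended on several choices. In shLoxl2 against shGFP (2751) it was 776 with the scanner software's ratios, 7636 with silenced RNA in Cy5 only and 6712 in Cy3 only, and 1747 to 2801 on leaving out a replicate. In shSnail against shGFP (1162 higher and 1838 lower) it was 7178 with median centring (3671 higher, 3507 lower), 6217 without dye correction, 4523 with the dye effect scaled, and 2 to 5855 on leaving out a replicate, 2 without either shSnail array. In shSnail against shLoxl2 (837 higher and 1690 lower) it was 9378 with median centring (5021 higher, 4357 lower) and 39 to 4308 on leaving out a replicate, 47 and 39 without shSnail replicates 1 and 2. The scanner software's ratios split the calls into 638 higher and 2294 lower, and 424 higher and 1928 lower, with medians over all probes of -0.277 and -0.278; median centring gave 0.118 in the last comparison. With the authors' value table limma called 0 probes in each comparison, with 3474, 3878 and 3863 at an unadjusted p under 0.05. The same-numbered samples had a correlation of deviations of 0.208 and were not taken as pairs; with the replicate block the last count was 2720, and Bmp7 was at 0.81 (limma adjusted p = 0.0542). Where 1 sample of a group was left, it was assumed to vary like the other group. The cause of these moves was not tested.

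Over the 10 genes and 3 comparisons, 308 of the alternative values kept direction and side of the threshold, 32 passed where the main value did not, 21 lost the call and 26 changed sign. Where a replicate was left out, the value without the other replicate, which kept its sign, stands in brackets. In shLoxl2 cells the sign changes were, with silenced RNA in Cy3 only, Bmp2 at 1.30, Id2 at -0.26 and Bambi at 0.08; Bmp4 at 0.05 with the scanner software's ratios and with the authors' value table; Id2 at -0.13 without shLoxl2 replicate 1 (0.61); and Id4 at 0.03 without shLoxl2 replicate 2 (-0.73). In shSnail cells they were, without dye correction, Bmp2 at -0.68, Bmp4 at 0.13 and Id1 at -0.02; Bmp4 at 0.01 with the effect scaled and at 0.10 without shLoxl2 replicate 1 (-0.35); with median centring Bmp4 at 0.90 and Id1 at -0.37; with the authors' value table Bmp7 at -0.30 and Bambi at -0.15; and Bambi at -0.21 with the scanner software's ratios. Between the hairpins they were Bmp4 at -1.26 with the scanner software's ratios and, with the authors' value table, Bmp4 at -1.22, Bmp7 at -0.25 and Id1 at 0.01; without shLoxl2 replicate 1, Id1 at 0.03 (-0.12) and Id4 at 0.52 (-0.58); Id4 at 0.24 without shSnail replicate 2 (-0.30); and, with median centring, Id3 at -0.17 and Smad6 at 0.07. Among the other pathway genes, Bmp10 (0.25), Nog (0.47) and Hey1 (-0.20) changed sign without dye correction in shSnail cells, and Nog (0.26) with the authors' value table between the hairpins. A filter on every array left 9 of the 10 genes; Smad6 had no value there.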
